A study of Mus musculus with 8 samples.

Results

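The genes described here are 10 members of the hyaluronan and proteoglycan matrix, taken by symbol from the 23284 genes in the count files. They are the hyaluronan synthases Has2 and Has3, the lectican core proteins Vcan, Ncan and Bcan, the link protein Hapln1, the hyaluronan receptor Cd44, and Tnc, Fbln1 and Fbln2, whose products bind lecticans. They were chosen by name with the fold changes of the same comparison already known, so their levels and fold changes are a description and carry no test. All 10 passed the filter on low counts, Has2 through its reads in 1 group.

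RNA was sequenced from microdissected peripheral retina of mice at postnatal day 12. Both groups of 4 libraries carry Cre recombinase under the alpha enhancer of Pax6, which is active in the peripheral retina. The 4 TET-MYCN libraries have the genotype label Rb null, TET-MYCN, and the series text gives them a Rosa26 LSL-RTTA allele, a Cre-dependent tetracycline transactivator, and a TRE-MYCN transgene. The 4 Rb-null libraries come from mice with floxed alleles of Rb, the retinoblastoma tumour suppressor gene. For the TET-MYCN mice the series text leaves out the floxed Rb alleles, and no doxycycline treatment is given in the labels used here. The question is how the transcripts of Rb-null retina differ with overexpression of MYCN, a transcription factor of the MYC family. Whether each library is a different animal is not stated, so a p-value reflects library-to-library spread only, which may be technical, and the tissue may hold cells that never had Cre.

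Reads assigned to genes numbered 14872131 to 22873979 per library. All 8 rod, 8 Müller glia, 8 retinal progenitor and 6 horizontal cell markers examined had more than 3 reads in every library. Mouse Mycn had 201 to 276 CPM (CPM is a gene's reads scaled to a common library size) in the TET-MYCN group, against 108 to 339 CPM in the Rb-null group. Rb1 had 123 to 179 CPM in the TET-MYCN group, against 138 to 184 CPM in the Rb-null group. Neither gene separated the groups. A transgene's reads may fall outside the mouse gene and a floxed gene may keep most of its exons, so the groups rest on the labels. Lens markers, crystallin genes among them, summed to 282 and 475 CPM in Rb-null libraries 2 and 3 and to at most 106 CPM in the other libraries. In these bulk samples fewer cells of a type and less RNA per cell cannot be told apart.

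Hyaluronan is a long, unbranched sugar polymer that hyaluronan synthases make at the plasma membrane and extrude into the extracellular space. Lecticans, proteoglycans decorated with chondroitin sulfate, bind it at one end, link proteins lock that bond, and tenascins and fibulins bind the lectin domain at the other end, which builds a hydrated network around cells. In the eye hyaluronan is abundant in the vitreous and in the matrix around photoreceptors, and in the brain the same families form the nets around neurons.

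The synthase genes differed most in Has2, the main hyaluronan synthase of the mouse embryo. Has2 had 62, 116, 17 and 82 reads in TET-MYCN libraries 1 to 4, against 1, 6, 2 and 2 reads in Rb-null libraries 1 to 4. That is 3.83, 5.02, 0.956 and 4.13 CPM in the TET-MYCN libraries, against 0.0509, 0.365, 0.131 and 0.135 CPM in the Rb-null libraries. The groups did not overlap, although the highest TET-MYCN library had 5.25 times the level of TET-MYCN 3, and 3 of the 4 Rb-null libraries were at or under a floor of 3 reads. Summed over libraries, 277 reads in the TET-MYCN group stood against 11 in the Rb-null group, a ratio of 21.7 after scaling to library totals (95% exact binomial interval 11.9 to 43.9, counting error only). The fitted log2 fold change was 4.33 ± 0.63 (SE, edgeR, 4 libraries each). Over the other settings it ranged from 3.99 without Rb-null 1 to 5.21 without the 2 crystallin-rich Rb-null libraries, a setting added after seeing the data.

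Has3, another synthase of the family, had 5.25, 4.11, 2.53 and 4.68 CPM in the TET-MYCN libraries, against 3.26, 3.65, 3.47 and 2.09 CPM in the Rb-null libraries. The groups overlapped, with TET-MYCN 3 below 3 of the Rb-null libraries, and the log2 fold change was 0.41 ± 0.27. Has1, the remaining synthase, had 18 reads in the TET-MYCN group (0.242 ± 0.141 CPM) and 17 in the Rb-null group (0.254 ± 0.0729 CPM, SD, n = 4 each) and was not tested at that depth.

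Has2 made up a different share of all synthase reads. Its share was 40.8%, 54.5%, 26.2% and 44.8% in TET-MYCN libraries 1 to 4, against 1.41%, 8.70%, 3.33% and 5.56% in Rb-null libraries 1 to 4. The lowest 95% Wilson bound in the TET-MYCN group, 17.0% in library 3, lay just under the highest bound in the Rb-null group, 18.1% in library 4, which rested on 36 synthase reads. On average 41.6 ± 11.8% of synthase reads were Has2 in the TET-MYCN libraries and 4.75 ± 3.13% in the Rb-null libraries (SD, n = 4 each). In the supplied mouse annotation Has2 shares 182 exon bases with its antisense gene Has2os, and Has3 shares 352 with Chtf8, each on the opposite strand. The use of strand in counting is not given, so such reads cannot be told apart. The antisense gene, listed in the files as Has2as, held 3 reads over all 8 libraries.

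**Figure D1:**
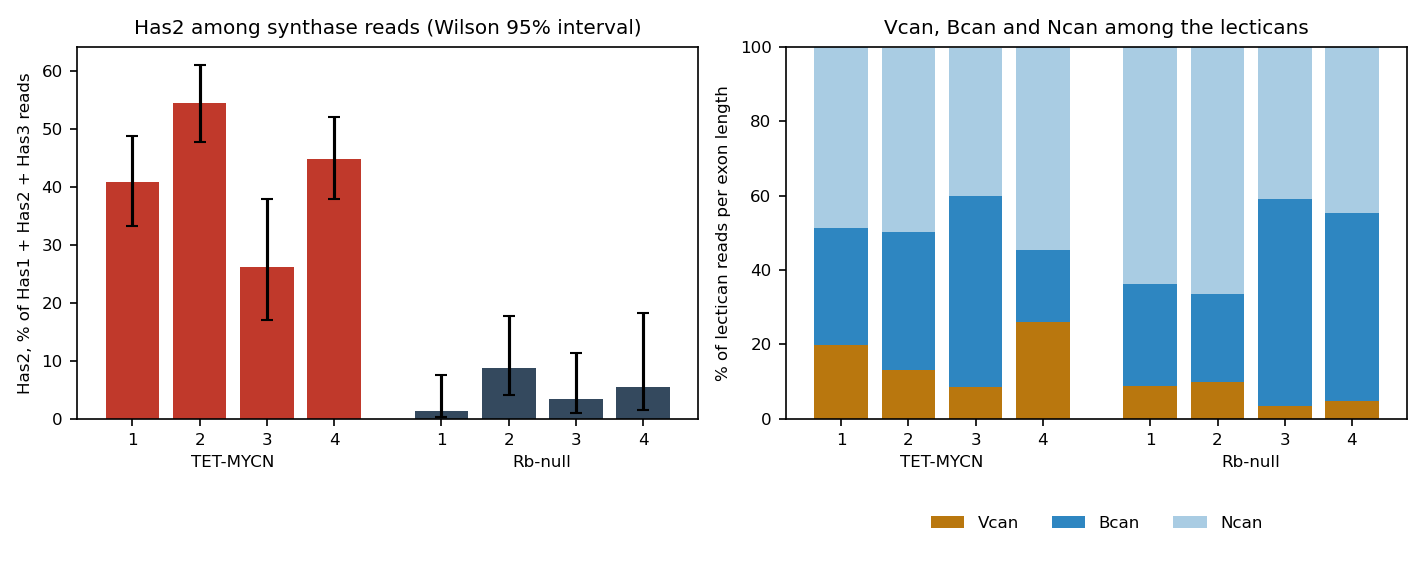
Left, Has2 reads as a percent of Has1, Has2 and Has3 reads in each library with its 95% Wilson interval, between 26.2% and 54.5% in the TET-MYCN libraries and between 1.41% and 8.70% in the Rb-null libraries. Right, each library's lectican reads per exon length divided among Vcan, Bcan and Ncan, where Vcan holds 8.57% to 26.0% in the TET-MYCN libraries and 3.38% to 9.97% in the Rb-null libraries.

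Vcan, a lectican gene, and Fbln1 and Fbln2, genes of its binding partners, varied together across the libraries, so their upstream sequences are shown side by side before their values. Each run is the 250 bases before the annotated start, 5′ to 3′ on the strand of the gene, from RefSeq on GRCm38.p6. The regions are chr15:85205699-85205948 on the plus strand for Fbln1, chr13:89742513-89742762 on the minus strand for Vcan, and chr6:91212514-91212763 on the plus strand for Fbln2. Capitals mark CACGTG, the E-box core that dimers of MYC proteins and MAX bind.
Fbln1: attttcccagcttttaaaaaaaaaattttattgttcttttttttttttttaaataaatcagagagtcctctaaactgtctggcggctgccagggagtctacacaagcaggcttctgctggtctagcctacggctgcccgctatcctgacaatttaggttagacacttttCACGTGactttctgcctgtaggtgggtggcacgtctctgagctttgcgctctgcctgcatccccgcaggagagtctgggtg
Vcan: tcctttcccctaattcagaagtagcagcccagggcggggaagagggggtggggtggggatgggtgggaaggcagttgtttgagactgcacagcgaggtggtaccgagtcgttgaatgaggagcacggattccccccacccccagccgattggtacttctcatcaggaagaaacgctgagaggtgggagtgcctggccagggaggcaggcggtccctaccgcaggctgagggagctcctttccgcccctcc
Fbln2: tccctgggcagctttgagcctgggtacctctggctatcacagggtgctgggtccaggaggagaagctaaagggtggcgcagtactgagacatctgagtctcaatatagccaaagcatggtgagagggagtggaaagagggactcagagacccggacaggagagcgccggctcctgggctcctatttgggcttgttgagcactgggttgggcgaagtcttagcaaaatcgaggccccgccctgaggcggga

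The Fbln1 window held the one CACGTG found, starting 81 bases before the annotated start, and the Vcan and Fbln2 windows held none. Of the 10 members, 8 matched a promoter entry, Has2 and Has3 being the others, and 1 of these 8 held CACGTG. Over all 27025 promoter windows of that length 6.05% did. The motif reads the same on both strands. TGANTCA, the site of AP-1 factors, searched on both strands, was in 0 of the 8 windows and in 6.87% of all windows. GC content was 46.4% for Fbln1, 62.4% for Vcan and 58.8% for Fbln2, against a median of 52% over all windows. A match is a stretch of letters and shows no binding.

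Vcan encodes versican, the large lectican found in many tissues outside the nervous system as well as within it. Vcan had 70.9, 31.3, 20.1 and 74.3 CPM in TET-MYCN libraries 1 to 4, against 15.5, 18.3, 9.90 and 10.9 CPM in Rb-null libraries 1 to 4. The groups did not overlap, but TET-MYCN 3 stood close to Rb-null 2, whereas TET-MYCN 1 and 4 stood far above every other library. Its log2 fold change was 1.84 ± 0.40 and lay between 1.57 and 2.10 over the other settings tried.

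Ncan encodes neurocan, a lectican largely restricted to the nervous system. Its level was 86.1, 59.2, 46.5 and 77.5 CPM in the TET-MYCN libraries, against 56.2, 60.6, 59.6 and 50.7 CPM in the Rb-null libraries. TET-MYCN 1 and 4 were the highest 2 libraries and TET-MYCN 3 the lowest of all 8, so the Rb-null libraries lay inside the TET-MYCN range. This gave a log2 fold change of 0.25 ± 0.18, or 0.10 without TET-MYCN 1.

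Bcan encodes brevican, the shortest lectican and likewise a protein of the nervous system. It had 31.5, 25.0, 33.8 and 15.6 CPM in the TET-MYCN libraries, against 13.7, 12.2, 45.8 and 32.4 CPM in the Rb-null libraries. The Rb-null libraries split, with 1 and 2 the lowest of all 8 and 3 the highest. The log2 fold change of 0.03 ± 0.41 changed sign in 4 of 14 other settings and ranged from -0.21 without Rb-null 2 to 0.45 without Rb-null 3. The 8 rod markers varied widely in the same libraries: they summed to 5984, 4393, 5418 and 2479 CPM in TET-MYCN libraries 1 to 4, against 8007, 3407, 16739.7 and 12817 CPM in Rb-null libraries 1 to 4. Within each group the lowest Bcan library was also the lowest for rod markers, TET-MYCN 4 and Rb-null 2, and Rb-null 3 and 4 were high for both. The part of rod content in the Bcan level was not tested.

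The fourth lectican gene, Acan, had 11 reads in the TET-MYCN group and 3 in the Rb-null group, too few to test. Per exon length, Vcan took 16.9 ± 7.67% of lectican reads in the TET-MYCN libraries and 6.72 ± 3.14% in the Rb-null libraries (SD, n = 4 each). Ncan took 48.2 ± 6.06% in the TET-MYCN libraries and 53.9 ± 13.0% in the Rb-null libraries, and Bcan 34.8 ± 13.3% in the TET-MYCN libraries and 39.3 ± 16.1% in the Rb-null libraries. The Vcan share overlapped between the groups, since TET-MYCN 3 at 8.57% lay below Rb-null 1 at 8.77% and Rb-null 2 at 9.97%. In both groups Ncan had the highest mean share.

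Hapln1 encodes a link protein that fastens lecticans to hyaluronan. Its level was low, 1.48, 1.51, 0.731 and 0.856 CPM in TET-MYCN libraries 1 to 4, against 1.27, 0.972, 1.90 and 2.15 CPM in Rb-null libraries 1 to 4. With all 8 libraries Hapln1 was the only member with a negative log2 fold change, -0.44 ± 0.34, and the groups overlapped. The other link protein genes gave no call: Hapln3 had 4.45 ± 1.33 CPM in the TET-MYCN libraries and 5.55 ± 0.260 CPM in the Rb-null libraries, a log2 fold change of -0.32 ± 0.22 (edgeR, adjusted p = 0.525). Hapln4 had 3.94 ± 1.34 CPM in the TET-MYCN libraries and 3.19 ± 0.962 CPM in the Rb-null libraries, a log2 fold change of 0.30 ± 0.30 (edgeR, adjusted p = 0.676). Hapln2 held 25 reads in the TET-MYCN group and 36 in the Rb-null group and was not tested. Each link protein gene lies beside a lectican gene with 0 protein-coding genes between them, as Vcan does with Hapln1, Bcan with Hapln2, Acan with Hapln3 and Ncan with Hapln4. The neighbours Vcan and Hapln1 had fold changes of opposite sign, and their deviations within groups had a Pearson r of -0.08 over the 8 libraries.

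Cd44 encodes the main cell surface receptor for hyaluronan, found in the retina on Müller glia. It had 28.0, 16.1, 17.9 and 21.3 CPM in the TET-MYCN libraries, against 17.7, 19.0, 18.1 and 17.0 CPM in the Rb-null libraries. The Rb-null libraries lay within 1.11-fold of each other and TET-MYCN 2 and 3 stood inside or below their range, so only TET-MYCN 1 and 4 were above it. The log2 fold change was 0.21 ± 0.17, and 0.03 without TET-MYCN 1. Over the same libraries the 8 Müller glia markers summed to 3675, 3936, 5245 and 4803 CPM in the TET-MYCN group, against 4724, 5752, 6325 and 6419 CPM in the Rb-null group. Their part in the Cd44 level was not tested.

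Tnc encodes tenascin-C, a large matrix glycoprotein of developing tissue that binds lecticans. It had 104, 112, 72.6 and 103 CPM in TET-MYCN libraries 1 to 4, against 68.4, 83.2, 65.1 and 63.9 CPM in Rb-null libraries 1 to 4. Only TET-MYCN 3, below Rb-null 2, made the groups overlap. Fitted to all libraries its log2 fold change was 0.48 ± 0.15, and 0.60 without TET-MYCN 3. Tnc shares 176 exon bases with 8030451A03Rik on the opposite strand, whose reads cannot be told apart from its own.

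Fbln1 encodes fibulin-1, a glycoprotein of basement membranes and elastic fibres that binds versican. It had 65.0, 24.3, 27.0 and 108 CPM in TET-MYCN libraries 1 to 4, against 11.0, 14.8, 7.54 and 9.89 CPM in Rb-null libraries 1 to 4. All TET-MYCN libraries were above all Rb-null libraries, and the TET-MYCN libraries themselves were spread 4.45-fold, with 1 and 4 high and 2 and 3 low. The log2 fold change was 2.37 ± 0.46, and 1.84 without TET-MYCN 4.

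Fbln2, for the related fibulin-2, which also binds versican, had 18.3, 11.2, 12.1 and 23.4 CPM in the TET-MYCN libraries, against 8.71, 9.17, 6.75 and 7.47 CPM in the Rb-null libraries. The groups did not overlap and the order of the libraries within each group was that of Fbln1, with TET-MYCN 4 highest and 2 lowest, and Rb-null 2 highest and 3 lowest. The log2 fold change was 1.01 ± 0.24.

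**Figure D2:**
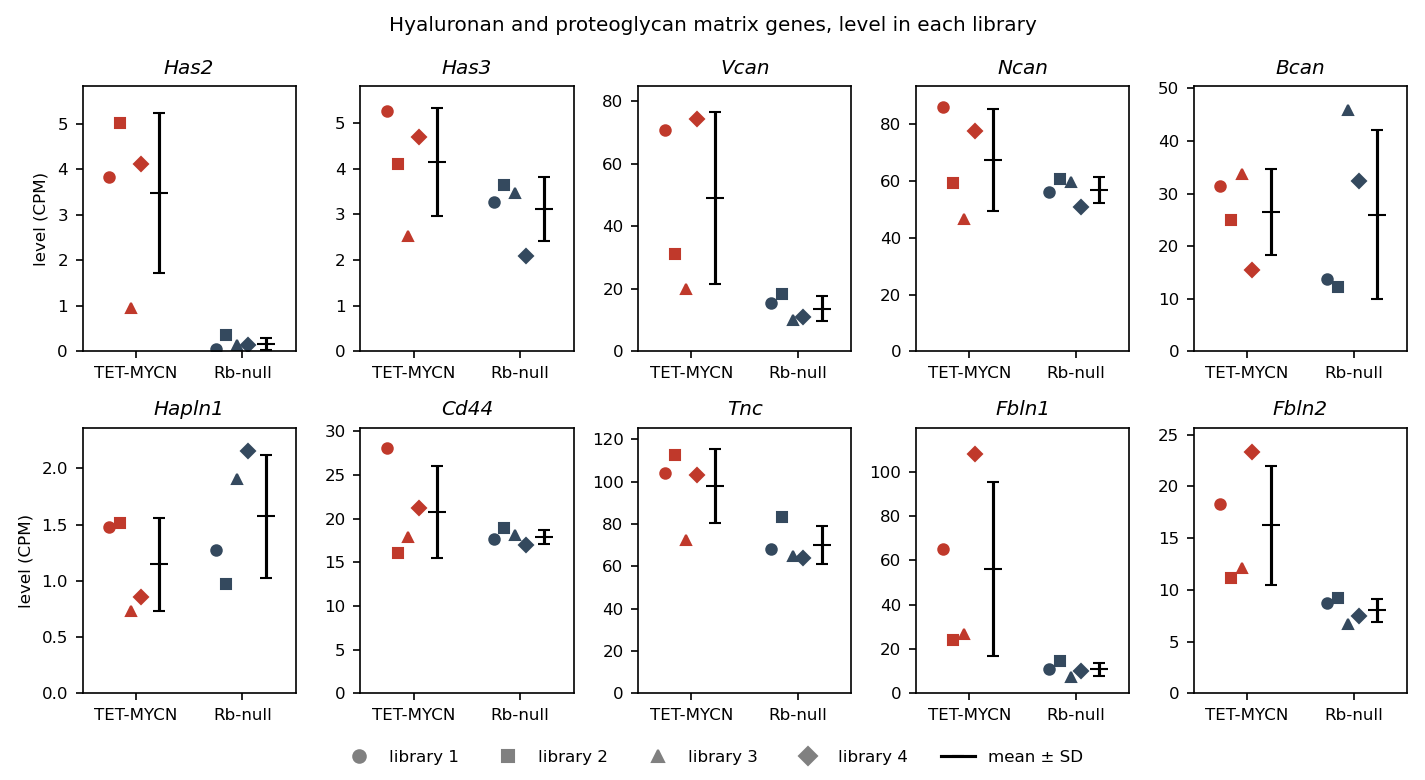
Level of each of the 10 genes in CPM (linear axes from 0), TET-MYCN libraries in red and Rb-null libraries in blue, symbols giving the library number, with mean ± SD (n = 4 each). Has2, Vcan, Fbln1 and Fbln2 show groups that do not overlap, with Fbln1 between 24.3 and 108 CPM in the TET-MYCN libraries and between 7.54 and 14.8 CPM in the Rb-null libraries.

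Over the 10 genes, 9 log2 fold changes were positive and 1 negative, with a median of 0.45, and over all 15106 genes tested the median was 0.01. The groups did not overlap for 4 of the 10, all higher in TET-MYCN, and 4.36% of all genes tested were higher without overlap. By edgeR's quasi-likelihood test with Benjamini-Hochberg adjustment at 0.05, 0 of the 10 were called, beside 0.0596% of all genes tested, and 5 of the 10 had an unadjusted p under 0.05, beside 15.8% of all genes tested. DESeq2 called Has2, Vcan, Fbln1 and Fbln2, beside 3.57% of all genes. Since the genes were chosen on this comparison, nothing is read from these counts.

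The calls depended on single libraries. Without TET-MYCN 3, edgeR called Has2, Vcan, Fbln1 and Tnc, beside 1.52% of all genes, and without TET-MYCN 2 it called Has2 and Fbln1, beside 0.87% of all genes. With no filter on low counts it called Has2 alone of the 10, beside 0.0862% of all genes. In the other settings 0 members were called. The genes were chosen on this comparison, so nothing is read from these calls either. TET-MYCN 3 was the lowest of its group for 6 of the 10 genes, and Rb-null 2 the highest of its group for 8 of the 10.

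**Figure D3:**
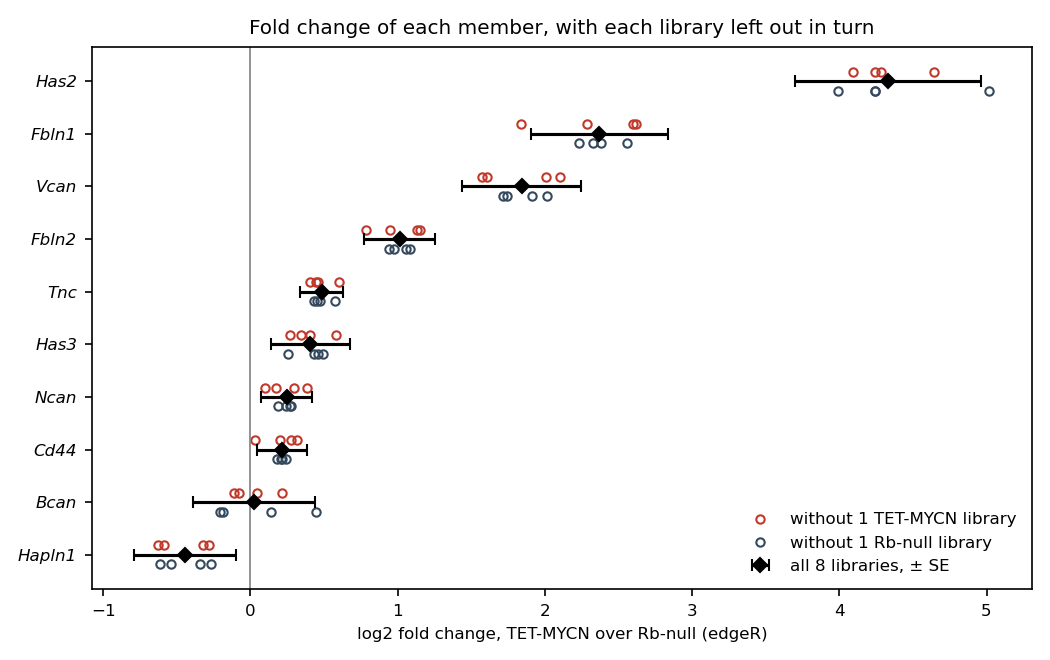
Log2 fold change of each gene, TET-MYCN over Rb-null, with all 8 libraries (black diamonds, ± SE) and with each library left out in turn (open circles, red for a TET-MYCN library and blue for an Rb-null library). Fbln1 reached its lowest value of 1.84 without TET-MYCN 4, and Bcan fell on both sides of 0.

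Levels of different genes can be set side by side only per length. In CPM per kilobase of exon, the TET-MYCN order began with Fbln1 at 12.8 ± 8.99, Tnc at 12.6 ± 2.25 and Ncan at 9.35 ± 2.48, then Bcan at 6.51, Vcan at 3.40, Cd44 at 3.07 and Fbln2 at 2.55. Has2 at 0.822, Has3 at 0.650 and Hapln1 at 0.194 came last. The ranges of neighbours in that order overlapped except between Fbln2 and Has2 and between Has3 and Hapln1.

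In the Rb-null libraries the order of levels per kilobase was Tnc at 9.02 ± 1.15, Ncan at 7.89 ± 0.616, Bcan at 6.40 ± 3.95, Cd44 at 2.65, Fbln1 at 2.48, Fbln2 at 1.26 and Vcan at 0.944. Has3 followed at 0.488, Hapln1 at 0.267 and Has2 at 0.0402. Neighbours did not overlap between Bcan and Cd44, Fbln1 and Fbln2, Vcan and Has3, and Hapln1 and Has2. By group mean Fbln1 was thus at rank 1 in the TET-MYCN libraries and rank 5 in the Rb-null libraries. Has2 was at rank 8 in the TET-MYCN libraries and rank 10 in the Rb-null libraries. The TET-MYCN values behind the Fbln1 mean ran from 5.56 in TET-MYCN 2 to 24.7 in TET-MYCN 4. The lowest was below every TET-MYCN value of Tnc and Ncan, at least 9.34 and 6.47. Rank 1 therefore did not hold in each library.

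How the genes varied inside the groups was described by Pearson's r between deviations of log2 CPM from the group mean over the 8 libraries, with no test, since the libraries share depth and tissue makeup. The closest pair was Fbln1 and Fbln2 at 0.99, then Has2 and Tnc at 0.94, Vcan with Fbln2 and with Fbln1 at 0.91 each, and Vcan and Ncan at 0.90. Bcan ran the other way, at -0.60 with both Vcan and Fbln2 and -0.57 with Fbln1. Has2 had lower values with Vcan, 0.61, and with Fbln1, 0.42.

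Among 12339 genes with a mean of at least 5 CPM, the 3 nearest to each member by that r all had values from 0.94 to 0.998. Vcan was nearest to Msn (moesin, which links membranes to actin), Pprc1 and Fbn2 (fibrillin-2, a microfibril protein). Fbln1 was nearest to Fbln2, Pitrm1 and Ahcy, and Fbln2 to Fbln1, Txnrd1 and Pitrm1. Has2 was nearest to Vps39, Fbxo42 and Ncoa3, and Tnc to Col27a1 (a fibrillar collagen), Usp42 and Zfp873. Ncan was nearest to Arid3a, Arhgef3 and Tmod1, and Bcan to Tpp1 (a lysosomal peptidase), Fn3k and Got1. For Has3 the nearest were Ccar1, Plcl1 and Zfp113, for Cd44 Hspd1, Sgk1 and Ccdc30, and for Hapln1 C77080, Ezh1 and Stk40. With 8 libraries and so many genes, high values of r arise readily.

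Markers of the ciliary margin, the rim where retina meets ciliary body, were high in the same libraries as Vcan, Fbln1 and Fbln2, but not in the library where Has2 was highest. The 9 listed markers summed to 216, 85.8, 89.4 and 294 CPM in TET-MYCN libraries 1 to 4, against 54.3, 76.0, 55.2 and 59.2 CPM in Rb-null libraries 1 to 4. In this sum, as in Vcan and Fbln1, TET-MYCN 1 and 4 were far above the rest and the groups did not overlap. TET-MYCN 2, where Has2 was highest at 5.02 CPM, had the lowest sum of its group. Has2 was next highest in TET-MYCN 4 and 1, at 4.13 and 3.83 CPM. Of the 9 markers, 8 had more than 3 reads in every library, and Msx2 was at 0 in 1.

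Zic1, a transcription factor gene, was the largest part of that sum in every library, with 93.5, 41.8, 30.2 and 149.5 CPM in the TET-MYCN libraries, against 20.7, 35.5, 20.3 and 17.6 CPM in the Rb-null libraries. Gja1, the gap junction gene of ciliary epithelium and glia, had 79.1, 14.4, 28.3 and 90.6 CPM in the TET-MYCN libraries, against 11.4, 11.6, 10.4 and 13.7 CPM in the Rb-null libraries. Both were highest in TET-MYCN 4 and next in TET-MYCN 1, where Vcan, Fbln1 and Fbln2 were also high, though for Zic1 the groups overlapped, with TET-MYCN 3 below Rb-null 2. For Gja1 and Bmp4 they did not overlap, and Bmp4, for a secreted growth factor, had 7.29, 1.30, 2.92 and 8.26 CPM in the TET-MYCN libraries, against 0.764, 0.668, 0.590 and 0.471 CPM in the Rb-null libraries. Of the 7 ciliary margin markers tested, 6 had a positive log2 fold change (list median 1.74). Cdo1 went the other way, at 6.73 and 5.54 CPM in TET-MYCN 1 and 4, the lowest of all 8 libraries, and 8.86 to 10.9 CPM in the Rb-null group. For Otx1, Bmp7, Msx1 and Wfdc1 the groups overlapped. Otx1, Bmp7 and Wfdc1 were still each highest in TET-MYCN 4 and next in TET-MYCN 1, whereas Msx1 was not. The part of ciliary margin tissue in the levels of these members was not tested.

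The other marker lists overlapped between the groups or, for pericytes, were lower in TET-MYCN. The 7 fibroblast and mesenchyme markers summed to 76.4 to 127 CPM in the TET-MYCN libraries and 95.2 to 106 CPM in the Rb-null libraries. Lum, Dpt and Twist1, of that list, were at 0 in at least 1 library. Pericyte and smooth muscle markers, all 6 detected, summed to 46.0 to 53.1 CPM in the TET-MYCN libraries and 57.4 to 61.2 CPM in the Rb-null libraries. Acta2, of that list, was higher in TET-MYCN 1 and 4, at 5.81 and 8.26 CPM. It had 1.47 and 1.85 CPM in TET-MYCN 2 and 3, and 1.15 to 2.83 CPM in the Rb-null libraries. Astrocyte markers, all 5 detected, summed to 53.5 to 171 CPM in the TET-MYCN libraries and 67.6 to 114 CPM in the Rb-null libraries. Vascular endothelial markers, all 6 detected, summed to 334 to 471 CPM in the TET-MYCN libraries and 417 to 484 CPM in the Rb-null libraries. Macrophage and microglia markers, all 8 detected, summed to 147 to 251 CPM in the TET-MYCN libraries and 124 to 260 CPM in the Rb-null libraries. Pigment epithelium markers summed to 23.2 to 97.2 CPM in the TET-MYCN libraries and 24.8 to 51.2 CPM in the Rb-null libraries, with Rpe65 and Best1 at 3 reads or fewer in at least 1 library. TET-MYCN 1 and 4 were the highest libraries for the astrocyte and pigment epithelium sums, but not for the whole of either list. Gfap, also a marker of reactive Müller glia, was the largest part of the astrocyte sum in every library. It made up 144 of 154 and 161 of 171 CPM in TET-MYCN 1 and 4. In TET-MYCN 2 it was 38.7 of 53.5 CPM, and in Rb-null 3 it was 45.4 of 67.6 CPM. Of the 5 astrocyte markers 1 had a positive log2 fold change (list median -0.67). Aldh1l1 had 2.59 and 3.22 CPM in TET-MYCN 1 and 4, and 7.41 to 11.1 CPM in the Rb-null group. All 5 pigment epithelium markers tested had a positive log2 fold change (list median 0.63). Dct, Pmel, Tyrp1 and Mitf were each highest in TET-MYCN 4 and next in TET-MYCN 1, whereas Tyr, Best1 and Rpe65 were not. Rpe65, an enzyme of the visual cycle in pigment epithelium and not among the 5 tested, was at most 0.309 CPM in the TET-MYCN libraries. It reached up to 2.10 CPM in the Rb-null libraries. Retinal progenitor markers summed to 982 to 1176 CPM in the TET-MYCN libraries and 1086 to 1224 CPM in the Rb-null libraries. Horizontal cell markers summed to 477 to 829 CPM in the TET-MYCN libraries and 533 to 641 CPM in the Rb-null libraries. Of these 6 markers 4 had a positive log2 fold change (list median 0.61). Lhx1, Onecut1 and Onecut2 were highest in TET-MYCN 1 and next in TET-MYCN 4, at 126 and 70.9 CPM for Onecut2. Calb1, Tfap2b and Sept4 did not share that order. Positive log2 fold changes were few among endothelial (0 of 6, list median -0.34), rod (0 of 8, -1.24) and Müller glia markers (1 of 8, -0.41). The same held for pericyte (1 of 6, -0.33), tested fibroblast (1 of 4, -0.28) and tested lens markers (1 of 7, -1.01). Macrophage and microglia (6 of 8, 0.17) and retinal progenitor markers (6 of 8, 0.52) were mostly positive. The part of these cell types was not tested.

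**Figure D4:**
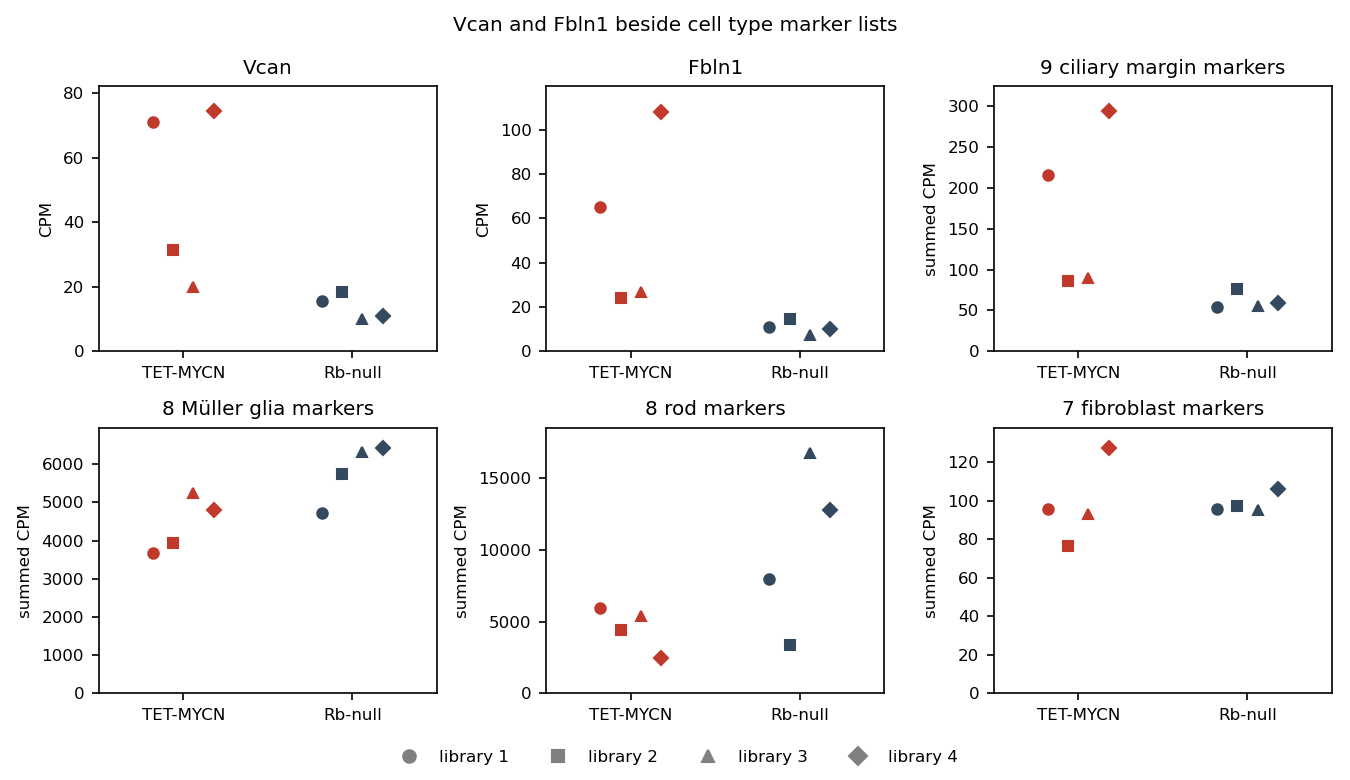
Vcan and Fbln1 (CPM) and the summed level of 4 marker lists (summed CPM, linear axes from 0) in each library, TET-MYCN left in red and Rb-null right in blue, symbols giving the library number. TET-MYCN 1 and 4 are the highest libraries for Vcan, Fbln1 and the 9 ciliary margin markers, the last at 216 and 294 CPM, while Müller glia and rod markers are lower there than in Rb-null 3 and 4.

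The rest of the pathway was read from 7 lists with 108 genes and no member, of which 95 were tested. By edgeR 0 of the 95 were called, and 19 had an unadjusted p under 0.05, as did 15.8% of all genes tested. DESeq2 called 3 of the 95, the core proteins Sdc1 and Gpc3 and the basement membrane gene Nid2, beside 3.57% of all genes, so the count is near the background. Of the 95 log2 fold changes 57 were positive and 38 negative, with a median of 0.09 against 0.01 over all genes tested. Groups did not overlap for 5 that were higher, beside 4.36% of all genes, and for 4 that were lower, beside 3.29% of all genes.

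Genes that supply the sugar precursors of hyaluronan gave 5 positive and 2 negative values among 7 tested, with a median of 0.09. The largest was 0.74. Has2 was chosen with its fold change known, so nothing is read from setting it beside them. Gfpt2, which makes glucosamine phosphate at the entry of the hexosamine pathway, had 4.50 ± 1.05 CPM in the TET-MYCN libraries and 2.68 ± 0.904 CPM in the Rb-null libraries, a log2 fold change of 0.74 ± 0.29 (edgeR, adjusted p = 0.266). Uap1 and Pgm3, later enzymes of that pathway, had log2 fold changes of -0.16 ± 0.14 and 0.11 ± 0.12 (edgeR, adjusted p = 0.623 and 0.700).

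Turnover genes gave 6 positive and 2 negative values among 8 tested, with a median of 0.08. The hyaluronan-degrading 9930013L23Rik, whose current symbol is Cemip, had 19.0 ± 5.29 CPM in the TET-MYCN libraries and 26.1 ± 1.67 CPM in the Rb-null libraries, a log2 fold change of -0.46 ± 0.18 (edgeR, adjusted p = 0.263). Hyal2, a membrane-anchored hyaluronidase, had 21.5 ± 3.72 CPM in the TET-MYCN libraries and 16.7 ± 2.25 CPM in the Rb-null libraries, a log2 fold change of 0.36 ± 0.15 (edgeR, adjusted p = 0.296). Gusb, a lysosomal glucuronidase, had a log2 fold change of 0.42 ± 0.20 (edgeR, adjusted p = 0.339).

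Other hyaluronan binding proteins and receptors gave 9 positive and 6 negative values among 15 tested, with a median of 0.03. Impg2, a proteoglycan of the matrix around photoreceptors, had 401 ± 62.2 CPM in the TET-MYCN libraries and 519 ± 30.2 CPM in the Rb-null libraries, a log2 fold change of -0.37 ± 0.13 without overlap (edgeR, adjusted p = 0.227). Habp4, an intracellular RNA-binding protein, had a log2 fold change of -0.32 ± 0.11 (edgeR, adjusted p = 0.220). Hmmr, a mitotic spindle protein that also binds hyaluronan, had 0.45 ± 0.20 (edgeR, adjusted p = 0.307).

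Tenascins, fibulins and their relatives gave 9 positive values and 1 negative among 10 tested, with a median of 0.25. Nid2, encoding the basement membrane protein nidogen-2, had 22.9, 8.27, 6.97 and 29.2 CPM in TET-MYCN libraries 1 to 4, with the Rb-null libraries at 5.35 to 7.07 CPM. TET-MYCN 1 and 4 were again the high libraries and TET-MYCN 3 lay within the Rb-null range, for a log2 fold change of 1.40 ± 0.43 (edgeR, adjusted p = 0.197). Its relative Nid1 had 0.35 ± 0.13 (edgeR, adjusted p = 0.239), and Efemp1, the gene of fibulin-3, had -0.47 ± 0.18 (edgeR, adjusted p = 0.258).

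Proteases that cut lecticans, with their inhibitors, gave 8 positive and 6 negative values among 14 tested, with a median of 0.15. Adamts9 and Adamts4, which cleave versican, had log2 fold changes of 1.13 ± 0.40 and 0.92 ± 0.35 (edgeR, adjusted p = 0.238 and 0.256). Adamts4 had 13.3 ± 6.55 CPM in the TET-MYCN libraries and 6.98 ± 2.10 CPM in the Rb-null libraries (SD, n = 4 each). The inhibitor Timp1 had 2.98 ± 0.862 CPM in the TET-MYCN libraries and 1.62 ± 0.258 CPM in the Rb-null libraries, a log2 fold change of 0.87 ± 0.27 (edgeR, adjusted p = 0.200). In each of these 3 genes the groups overlapped.

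Other proteoglycan core proteins gave 12 positive and 9 negative values among 21 tested, with a median of 0.15. The smallest adjusted p of all lists, 0.158 by edgeR, belonged to Sdc1, the cell surface heparan sulfate proteoglycan syndecan-1. Sdc1 had 38.6, 27.7, 27.9 and 52.1 CPM in the TET-MYCN libraries, against 17.7, 24.2, 13.6 and 17.4 CPM in the Rb-null libraries, without overlap and with a log2 fold change of 1.005 ± 0.236. Gpc3, the membrane-anchored glypican-3, had 76.0 ± 24.6 CPM in the TET-MYCN libraries and 46.2 ± 2.88 CPM in the Rb-null libraries, also without overlap, with a log2 fold change of 0.72 ± 0.20 (edgeR, adjusted p = 0.173). Spock2, a secreted proteoglycan of the testican family, had 119 ± 29.4 CPM in the TET-MYCN libraries and 176 ± 26.8 CPM in the Rb-null libraries, a log2 fold change of -0.57 ± 0.18 (edgeR, adjusted p = 0.208).

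Genes for chondroitin sulfate, the sugar chain of the lecticans, gave 8 positive and 12 negative values among 20 tested, with a median of -0.02. Dse, an epimerase that turns chondroitin into dermatan sulfate, had 8.63 ± 2.60 CPM in the TET-MYCN libraries and 5.19 ± 0.486 CPM in the Rb-null libraries, a log2 fold change of 0.73 ± 0.22 (edgeR, adjusted p = 0.197). Csgalnact1, which starts the chain, had 7.01 ± 2.32 CPM in the TET-MYCN libraries and 10.7 ± 0.367 CPM in the Rb-null libraries, a log2 fold change of -0.60 ± 0.23 (edgeR, adjusted p = 0.253). Both had groups without overlap, in opposite directions. The sulfotransferase Chst15 had 0.33 ± 0.23 (edgeR, adjusted p = 0.517).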

How the data were processed

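For each of the 8 libraries the deposited file holds raw counts per gene symbol, made by the authors without normalization. Per the labels' protocols, Trizol RNA was selected with oligo-dT and prepared with a NEBNext Ultra kit. CASAVA 1.8.2, TopHat2 2.0.8b, HTSeq 0.5.4p3 and the mouse build mm9 are named in the submitters' processing notes; for options, annotation and strand setting, nothing is stated (not given in the sources used here). The HTSeq rows for reads without a single gene, 28.3% to 31.7% of each file, entered neither library sizes nor tests.

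After filterByExpr, given the groups, 15106 of 23284 genes were tested, with TMM scaling. All 8 libraries entered 1 quasi-likelihood F test in edgeR 4.0.16 (R 4.3.3, robust = TRUE, no covariate), with Benjamini-Hochberg adjustment at 0.05 over all genes tested. Log2 fold changes are TET-MYCN over Rb-null, the SE is the size of the change divided by the square root of F, and ± after CPM or a share is the SD (n = 4). For CPM, library sizes were TMM-scaled; 3 reads, the floor, were 0.130 to 0.202 CPM. Intervals at 95% cover counting error only, since PCR reads without molecular identifiers are not independent molecules. Exon lengths came from GENCODE M21 on GRCm38 and serve for levels per kilobase only, since no mm9 annotation was used here.

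The 10 genes, the pathway lists and the marker lists were chosen with earlier results of these data known. In each pathway list the 3 genes with the smallest unadjusted p and a mean CPM of at least 1 are named, with the 3 genes nearest to each member by r; Has1, Acan and Hapln2 to Hapln4 are always named. Alternatives were DESeq2 1.42.0, its size factors, no filter, at least 1 CPM in at least 4 libraries, a replicate block and leaving out each library; leaving out both crystallin-rich libraries was added after seeing the data. Same-group libraries all differed beyond sampling noise (chi-square per degree of freedom 18.0 to 75.1). On simulated counts for TET-MYCN against Rb-null, edgeR found 77 of the 100 genes given a 2-fold change and 97 of the 100 given a 4-fold change, and called 5 unchanged genes, among 15017. DESeq2 found 82 and 98 and called 30 unchanged genes, among 15106. The simulated counts were drawn for each gene independently at its fitted dispersion, with changes only in genes above a minimum mean count. They held no shifts shared by many genes of a library, so these numbers do not give the power in the real libraries. Figures were drawn with matplotlib 3.10.9.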

Additional observations from a re-analysis of the deposited data

How the results depend on the processing

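Of all genes tested edgeR called 9, and 17 with no filter on low counts, 539 by DESeq2 and 3 with the replicate block. Leaving out 1 library gave 0 to 230 calls: 230 without TET-MYCN 3, 132 without TET-MYCN 2, 1 without Rb-null 1 and 0 without any of the other 5. Without both crystallin-rich libraries, a setting chosen after seeing the data, 0 genes were called. Same-numbered libraries deviated with r of -0.04, -0.06, -0.12 and -0.29, and different-numbered ones with r from -0.24 to 0.45. These values show no pairing by number but cannot exclude one. Related matrix genes called numbered 0, and 3 by DESeq2 and 0 to 1 with 1 library left out (9930013L23Rik without TET-MYCN 2, Nid1 without TET-MYCN 3). Their median log2 fold change stayed between 0.04 and 0.11, and that of all genes between 0.00 and 0.02. The sign of 9 of the 10 members' fold changes held in every setting run, Bcan being the exception. Has2 was not tested under the filter on CPM. The cause of these differences was not tested. At 3 reads or fewer in 3 Rb-null libraries, depth limits the Rb-null level of Has2, and Has1, Acan and Hapln2 could not be compared.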
